A study of Mus musculus with 10 samples.

Results

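The 35 genes described here are immediate early and stress response genes, taken by symbol from the 25078 genes of the deposited count table. All 35 were found. They comprise 7 AP-1 genes and relatives (Fos, Fosb, Fosl2, Jun, Junb, Jund and Atf3), 3 EGR genes (Egr1, Egr2 and Egr3), 3 NR4A receptors (Nr4a1, Nr4a2 and Nr4a3), Ier2, Ier3, Ier5 and Csrnp1, the phosphatase genes Dusp1, Dusp2, Dusp5 and Dusp6, the RNA decay and antiproliferative genes Zfp36, Btg1 and Btg2, Klf2, Klf4 and Klf6, Gadd45a, Gadd45b, Gadd45g and Ppp1r15a, the small MAF genes Maff and Mafk, and Rhob and Sgk1. RNA was sequenced from LSK cells, the lineage-negative, Sca-1-positive and c-Kit-positive fraction of bone marrow that holds stem and multipotent progenitor cells, with 1 library from each of 10 mice, 5 of them CM and 5 CM/miR-126Δ/Δ. Both genotypes carried the Cbfb 56M knock-in allele, which encodes the leukemic fusion Cbfb-MYH11 (CM), and Mx1-Cre on a C57BL/6 background. The CM/miR-126Δ/Δ mice were in addition homozygous for a floxed miR-126 allele. Young adult males and females had received repeated doses of poly(I:C), and cells were collected at a preleukemic stage 6 weeks later. Mx1-Cre responds to interferon and is active in many hematopoietic and other cells, so neither the fusion nor the deletion was limited to LSK cells. The label of the deletion could be checked only weakly: in CM mice the Mir126a row held 4, 5, 0, 2 and 3 reads, while all 5 CM/miR-126Δ/Δ libraries held 0, which allows up to 3 reads per library.

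Immediate early genes are switched on within minutes of a signal without need for new protein synthesis. The signal reaches them mainly through the ERK, JNK and p38 kinases, which act on transcription factors already bound at their promoters (SRF with its ETS partners, and CREB). Many of the products are transcription factors, while others, such as the dual-specificity phosphatases and the RNA-binding protein Zfp36, shut the response down again, and the transcripts are short-lived. In blood stem cells several members are known regulators of quiescence and growth, and in any tissue the group is known to respond to the handling of cells before lysis.

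The promoters printed next were picked to show members with wide spread between the mice (Fos, Nr4a1, Dusp1 and Zfp36), a member with a pair of adjacent CArG boxes (Dusp5) and the member with the narrowest spread (Mafk). Each runs 5′ to 3′ over the 150 bases before the annotated start (RefSeq, GRCm38.p6, the same assembly as mm10). Capitals mark matches on either strand to the motifs described after the sequences.
Fos (chr12:85473740-85473889, plus strand): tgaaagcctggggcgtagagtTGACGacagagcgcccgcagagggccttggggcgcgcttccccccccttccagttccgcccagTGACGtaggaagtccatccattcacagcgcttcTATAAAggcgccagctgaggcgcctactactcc
Nr4a1 (chr15:101266696-101266845, plus strand): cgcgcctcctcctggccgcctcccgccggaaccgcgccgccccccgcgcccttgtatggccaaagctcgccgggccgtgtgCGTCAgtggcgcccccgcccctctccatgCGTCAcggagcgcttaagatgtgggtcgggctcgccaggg
Dusp1 (chr17:26508473-26508622, minus strand): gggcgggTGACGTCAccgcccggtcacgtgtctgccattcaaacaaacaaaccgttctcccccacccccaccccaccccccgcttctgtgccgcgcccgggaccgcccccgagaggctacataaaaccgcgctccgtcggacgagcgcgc
Zfp36 (chr7:28379229-28379378, minus strand): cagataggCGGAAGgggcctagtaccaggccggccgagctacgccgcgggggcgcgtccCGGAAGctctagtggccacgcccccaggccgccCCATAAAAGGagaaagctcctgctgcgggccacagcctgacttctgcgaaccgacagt
Dusp5 (chr19:53528995-53529144, plus strand): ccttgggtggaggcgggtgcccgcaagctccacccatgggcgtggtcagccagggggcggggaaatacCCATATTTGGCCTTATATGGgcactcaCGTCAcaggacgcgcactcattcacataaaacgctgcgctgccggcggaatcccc
Mafk (chr5:139791386-139791535, plus strand): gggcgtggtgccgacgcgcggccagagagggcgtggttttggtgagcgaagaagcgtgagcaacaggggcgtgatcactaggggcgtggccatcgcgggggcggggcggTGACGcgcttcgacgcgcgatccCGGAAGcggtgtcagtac

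The short cAMP response element motif TGACG, part of the site bound by CREB and ATF proteins, lay 66 and 129 bases before the Fos start and 40 and 69 bases before the Nr4a1 start. Over windows of 300 bases, from 250 before to 50 after the start, 20 of the 32 members with a promoter in the reference table held it (62.5%), against 23.0% of the 27025 genes in that table and 36.3% of the 9154 expressed genes found there. These were 78.4% of the expressed genes, too few for a valid comparison, so their shares are given as a description only. The full palindromic cAMP response element, which contains the short motif, was found in Btg2, Dusp1, Maff and Ppp1r15a (12.5% of members, 2.03% of all genes and 3.60% of expressed genes). A CArG box (CC, 6 letters that are A or T, GG), the letters bound by SRF, was found in Dusp5, Egr2 and Zfp36 (9.38%, 1.81% and 1.5%), with the adjacent boxes of Dusp5 starting 82 and 72 bases before its start. In Egr2 the box lay before 1 of its 5 annotated starts. Ier2, Egr1 and Egr3 had no promoter in the reference table and were not searched. Sites outside the windows were not sought in any member, so a motif not found here may lie elsewhere. The ETS core CGGAAG occurred in 8 members (25%), a share above that of all genes (18.8%) and below that of the expressed genes (37.2%). The TATA box TATAAA occurred in 8 (25%, 15.7% and 8.41%), among them Fos with its match 33 bases before the start. A gene with several starts was counted when any of them held the motif. The matches describe letters only, and Mafk, which varied least between mice, also held TGACG and CGGAAG.

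The transcripts shared other features. The AU-rich heptamer ATTTATT, a core letter pattern of elements that mark transcripts for decay, occurred in the longest annotated 3′ untranslated region of 15 of the 35 members (42.9%), against 28% of 9638 expressed genes. Genes are called expressed here when their mean RPKM, the reads per kilobase of exon scaled to library size, reached 1 in either genotype. Its density was 0.628 per kilobase in the members and 0.281 in the expressed genes. Csrnp1, Fosl2 and Ppp1r15a had 4 each. The genes were compact in the genome: 26 of 35 (74.3%) spanned under 10000 bases, against 30.2% of the 11682 expressed genes, and the median span was 4259 bases. The median exon length was 2797 bases in the members and 2921 in the expressed genes. For the deleted microRNA, the mature sequence with its seed (bases 2 to 8) in capitals is shown because its seed match was sought in the members.
mmu-miR-126a-3p (chr2:26591402-26591423, plus strand): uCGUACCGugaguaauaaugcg

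The 7-base match to the seed, CGGTACG, occurred in the 3′ untranslated region of 0 of the 35 members. The 6-base match GGTACG occurred in Btg1 only (2.86% of members, 3.58% of the expressed genes).

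The libraries held 23649233 to 33202086 counts. Levels are given as CPM, counts scaled to library size by TMM. Genes marking LSK cells were high in every library (the summed level of Kit, Ly6a, Cd34, Ly6e and Gata2 was 2475 to 3144 CPM). The mice carried numbers from 1 to 5 in both genotypes. Xist and Y-linked genes marked mice 1, 2 and 3 as female and mice 4 and 5 as male in both genotypes, so the sexes were balanced. Nothing in the sources says that same-numbered mice shared a litter, a sort or a day. As the cells were sequenced in bulk, fewer cells expressing a gene and less RNA per cell cannot be told apart.

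In the member genes, 1 library stood apart with high levels and 3 with low levels. CM mouse 2 had the highest level of all 10 libraries for 34 of the 35 members, the exception being Gadd45a. CM mouse 3 and CM/miR-126Δ/Δ mice 3 and 5 were the 3 lowest libraries for 29 of 35. Over the 11682 expressed genes, the same 3 libraries were the 3 lowest for 3.99% and the 3 highest for 2.71%. The summed level of the 35 members was 4547, 9154, 2142, 4665 and 5393 CPM in CM mice 1 to 5, and 3961, 3700.3, 991, 5067 and 1066 CPM in CM/miR-126Δ/Δ mice 1 to 5. The low libraries thus included mice of both genotypes and, by the sex-linked genes, of both sexes. These libraries were singled out by the member levels themselves, so their order is a description and carries no test.

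**Figure D1:**
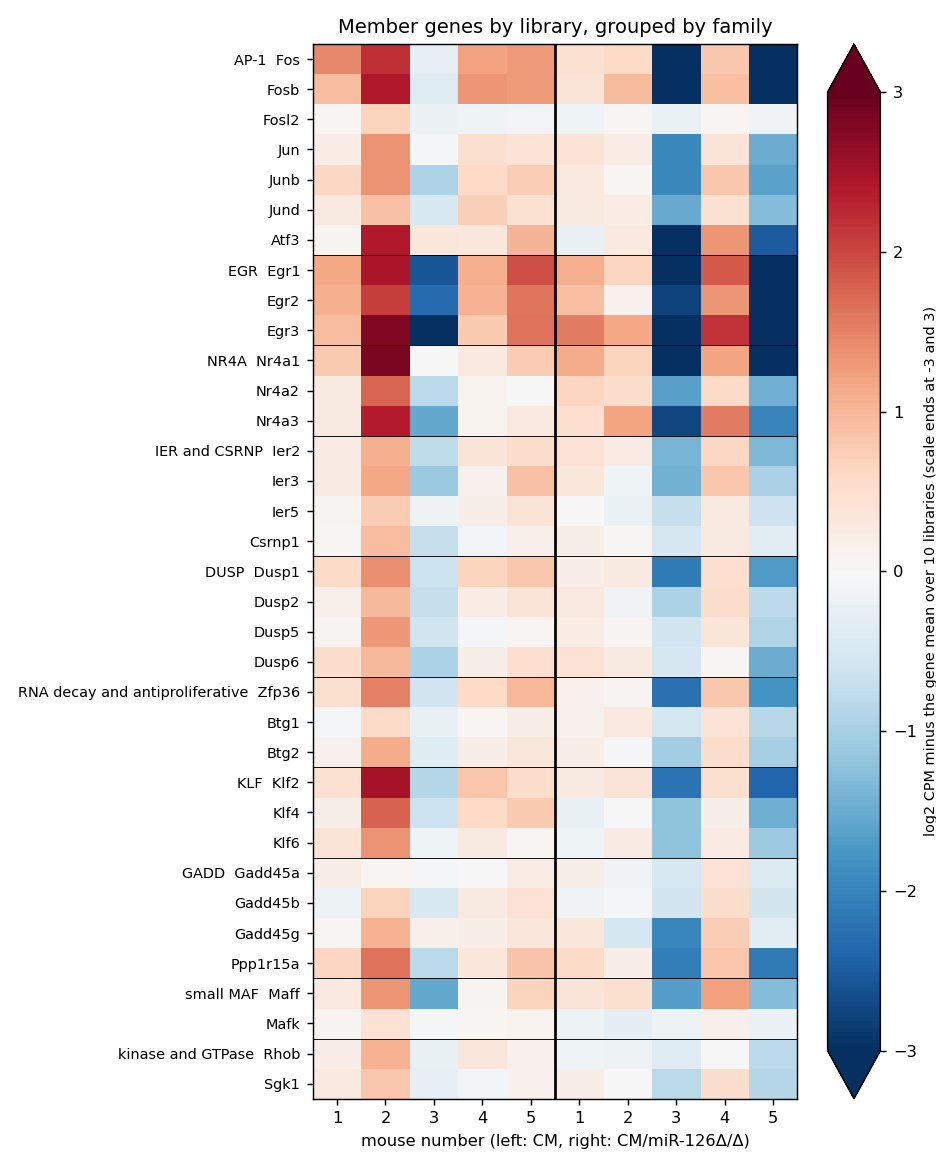
Heatmap of the 35 members (rows, grouped by family) in the 10 libraries (columns, CM mice 1 to 5 left of the line and CM/miR-126Δ/Δ mice 1 to 5 right of it), coloured by log2 CPM minus the mean of each gene over the 10 libraries. CM mouse 2 is high in nearly every row, mice 3 and 5 of CM/miR-126Δ/Δ are low, and CM mouse 3 is the lowest CM mouse in the EGR rows.

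Fos, which pairs with JUN proteins to form AP-1, was the most abundant member per length, with a median of 206 RPKM over the 10 libraries. Its level was 725, 1220.5, 225, 616 and 649 CPM in CM mice 1 to 5 and 369, 406, 17.1, 464 and 19.4 CPM in CM/miR-126Δ/Δ mice 1 to 5. The highest and the lowest library differed 71.5-fold, and CM/miR-126Δ/Δ mice 3 and 5 lay 21.6-fold and 19.0-fold below the next lowest mouse of their genotype. Fosb, a close relative of Fos, measured 258, 717, 104, 340.2 and 326 CPM in CM mice and 177, 260.5, 7.88, 254 and 10.4 CPM in CM/miR-126Δ/Δ mice. Although each gene varied so widely, the RPKM of Fosb stayed between 0.199 and 0.359 of that of Fos in every library. Jun, the main partner of Fos, ranged less: 461, 1000.1, 381, 553 and 529 CPM in CM mice and 522, 459.7, 104, 519 and 141 CPM in CM/miR-126Δ/Δ mice. Outside the low CM/miR-126Δ/Δ mice 3 and 5 and the high CM mouse 2, all Jun levels lay between 381 and 553 CPM, so the genotypes overlapped. Junb ranged from 42.6 to 419.7 CPM and Jund from 62.3 to 327 CPM. Atf3, a stress-induced ATF factor, had only 4 and 7 counts in CM/miR-126Δ/Δ mice 3 and 5, against 45 to 324 counts in the other libraries. Fosl2 behaved otherwise than its relatives, with 34.1 to 61.8 CPM in CM mice (40.6, 61.8, 34.1, 35.4 and 36.6) and 35.3, 39.5, 33.5, 40.3 and 36.0 CPM in CM/miR-126Δ/Δ mice, so the mice low in Fos lay within 1.84-fold of every other mouse in Fosl2, although mouse 3 of each genotype was the lowest.

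The EGR zinc finger factors, targets of ERK signalling through SRF, had the widest spread. Egr1 measured 574, 1413, 43.7, 549.6 and 984 CPM in CM mice and 549, 406, 14.3, 928 and 23.1 CPM in CM/miR-126Δ/Δ mice. CM mouse 3 and CM/miR-126Δ/Δ mice 3 and 5 were 12.6-fold, 28.3-fold and 17.5-fold below the next lowest mouse of their genotype, and the other 7 mice overlapped. Egr3 had 186, 624, 7, 153 and 280 counts in CM mice and 235, 164, 1, 343 and 6 counts in CM/miR-126Δ/Δ mice, the same 3 mice being low. Egr2 showed 4 to 8 counts in these mice and 52 to 253 in the others, at a level too low for its own ratio to Egr1 to be read. The 3 EGR genes summed to 584, 1442, 44.3, 559 and 999 CPM in CM mice (726 ± 524, SD, n = 5) and to 561, 414, 14.6, 946 and 23.5 CPM in CM/miR-126Δ/Δ mice (392 ± 392).

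The low libraries shared a high ratio of Jun to Egr1 but differed in other ratios. The RPKM of Jun was 8.40 times that of Egr1 in CM mouse 3 and 6.98 and 5.88 times in CM/miR-126Δ/Δ mice 3 and 5. In all other libraries it was 0.518 to 1.09 times that of Egr1. In CM mouse 3 the RPKM of Fos was 7.49 times that of Egr1, against 0.728 to 1.84 times in the other 9 libraries. Nr4a1 stood at 1.33 times Egr1 in CM mouse 3 and at 0.100 to 0.305 times in the others. Relative to Egr1, CM mouse 3 thus held more Fos and Nr4a1 than any other library, although its own Fos and Nr4a1 were the lowest of the CM mice. In CM/miR-126Δ/Δ mice 3 and 5, by contrast, Fos was low with Egr1 (1.74 and 1.22 times Egr1), whereas Fos stood at 0.249 and 0.208 times Jun, against 0.892 to 2.38 times in the other 8 libraries.

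**Figure D2:**
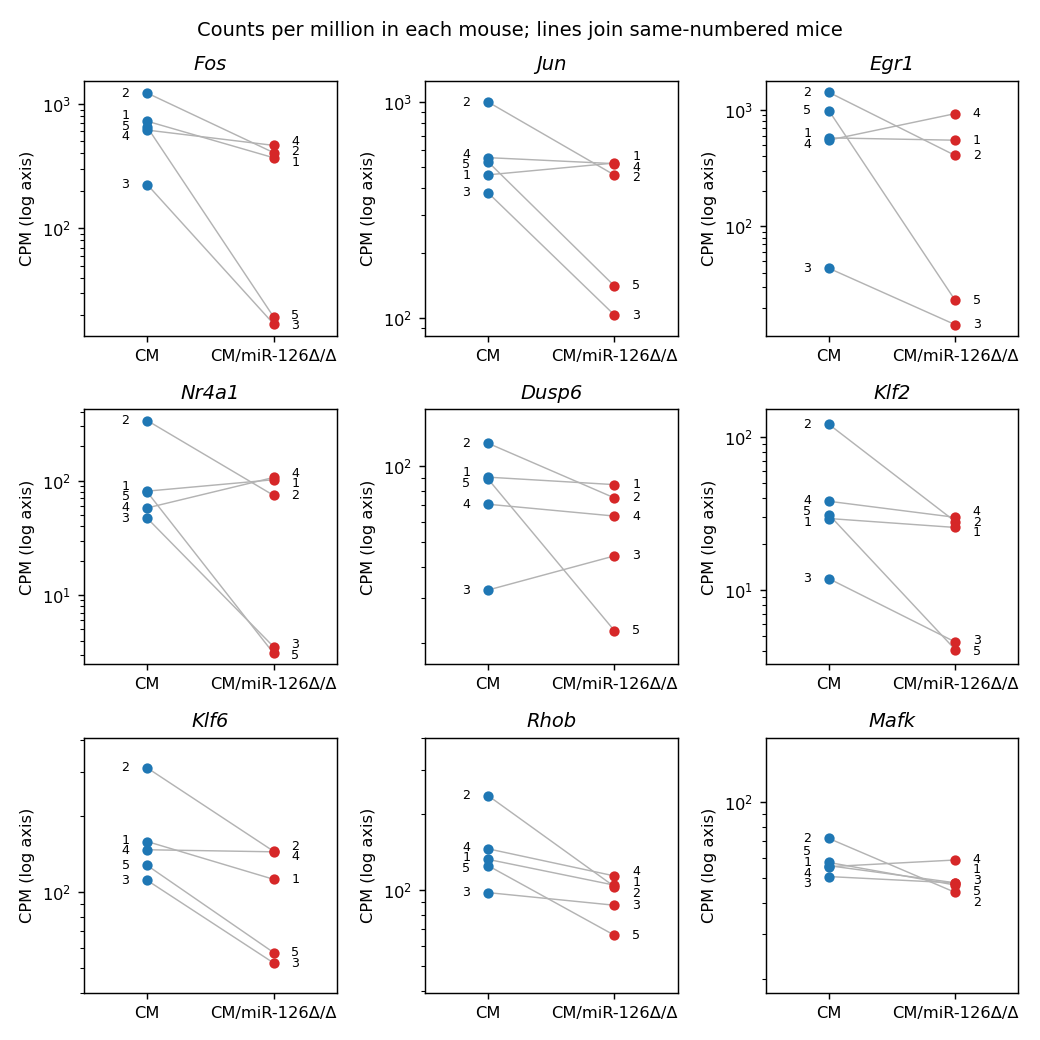
CPM (log axis) of 9 members in each mouse, with CM in blue, CM/miR-126Δ/Δ in red, mouse numbers beside the points and grey lines joining same-numbered mice. Fos and Nr4a1 lie far below the other mice in CM/miR-126Δ/Δ mice 3 and 5, Egr1 is low in CM mouse 3 as well, and Mafk stays between 43.9 and 71.8 CPM throughout.

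Nr4a1, an orphan nuclear receptor induced by antigen and growth factor signals, measured 81.1, 336, 46.9, 57.9 and 79.6 CPM in CM mice and 102, 74.5, 3.53, 107 and 3.09 CPM in CM/miR-126Δ/Δ mice. The span of 109-fold was the widest of all members with more than 3 counts in every library, and its CM mouse 2 lay 4.14-fold above the next CM mouse. Nr4a2 ranged from 3.61 to 38.2 CPM, and Nr4a3, known with Nr4a1 as a restraint on myeloid growth, from 0.261 to 11.3 CPM. Nr4a3 was the only member below a mean of 1 RPKM in both genotypes.

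The feedback genes ranged from 2.67-fold (Btg1) to 13.4-fold (Zfp36) over the 10 libraries. Dusp6, a phosphatase that acts on ERK, measured 90.6, 123, 32.3, 70.7 and 89.0 CPM in CM mice and 84.6, 74.9, 44.1, 63.5 and 22.3 CPM in CM/miR-126Δ/Δ mice. CM/miR-126Δ/Δ mouse 3, the lowest in Egr1, was not the lowest in Dusp6. Dusp1, which acts on JNK and p38 as well, measured 194, 339, 82.3, 206 and 227 CPM in CM mice and 149.6, 155, 30.3, 183 and 40.1 CPM in CM/miR-126Δ/Δ mice. Dusp2 ranged from 53.3 to 201 CPM and Dusp5 from 13.5 to 62.5 CPM. Zfp36, which binds AU-rich elements and promotes decay, was the second most abundant member per length (184 RPKM) and measured 363, 733, 175, 392 and 516 CPM in CM mice and 285, 273, 54.8, 450.3 and 74.4 CPM in CM/miR-126Δ/Δ mice. The antiproliferative genes Btg1 and Btg2 ranged from 51.5 to 137 CPM and from 51.2 to 230.1 CPM. Of the IER group, Ier2 ranged from 58.2 to 322 CPM, Ier3 from 14.7 to 87.8 CPM and Csrnp1 from 40.2 to 125 CPM. Ier5, a regulator of heat shock factor activity, measured 42.7, 69.1, 36.6, 46.1 and 53.3 CPM in CM mice and 40.3, 35.4, 24.9, 49.8 and 26.3 CPM in CM/miR-126Δ/Δ mice. The genotypes overlapped for every one of these genes.

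The KLF factors are zinc finger proteins, of which Klf2 and Klf4 are linked to quiescence. Klf2 measured 29.4, 121, 11.9, 38.1 and 31.1 CPM in CM mice and 25.7, 28.1, 4.57, 29.9 and 4.08 CPM in CM/miR-126Δ/Δ mice. Klf4 measured 13.4, 40.9, 7.61, 18.0 and 20.4 CPM in CM mice and 10.2, 11.7, 5.14, 13.5 and 4.28 CPM in CM/miR-126Δ/Δ mice. Klf6 measured 159, 311, 111, 147 and 128 CPM in CM mice and 112, 145, 52.4, 145 and 57.6 CPM in CM/miR-126Δ/Δ mice. In each gene CM mouse 2 was the highest library, CM mouse 3 lay within the range of the CM/miR-126Δ/Δ mice, and the genotypes overlapped. Rhob, a short-lived small GTPase, measured 132, 237, 97.7, 146 and 125 CPM in CM mice and 105, 103, 87.1, 114 and 66.2 CPM in CM/miR-126Δ/Δ mice. Only CM mouse 3 overlapped with the other genotype in Rhob. The kinase gene Sgk1 ranged from 4.90 to 15.8 CPM.

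The growth arrest genes split in their spread. Gadd45a, a p53 target, measured 12.1, 10.9, 10.2, 10.5 and 12.3 CPM in CM mice and 11.9, 9.85, 7.58, 14.2 and 7.99 CPM in CM/miR-126Δ/Δ mice, a 1.88-fold range. Gadd45b ranged 2.35-fold, Gadd45g 9.18-fold at 10 to 121 counts, and Ppp1r15a, which restores translation after stress, 13.5-fold (21.4 to 290.3 CPM). The small MAF genes split as well: Maff ranged 8.16-fold, whereas Mafk measured 56.0, 71.8, 50.7, 55.5 and 57.7 CPM in CM mice and 47.9, 43.9, 47.8, 59.0 and 46.9 CPM in CM/miR-126Δ/Δ mice, a 1.64-fold range and the narrowest of the members.

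The spread of the members between libraries was large for genes at their level. The SD of log2 CPM over the 10 libraries had a median of 0.89 in the members and 0.14 in the expressed genes. It exceeded 1 in 15 of 35 members (42.9%) and in 0.976% of expressed genes, and was largest for Egr3 (2.63), Egr1 (2.43), Fosb (2.17), Nr4a1 (2.14) and Fos (2.14) and smallest for Mafk (0.21), Fosl2 (0.26) and Gadd45a (0.28). The median SD was 0.73 within CM mice and 1.00 within CM/miR-126Δ/Δ mice. The dispersion that edgeR fitted for each gene, which describes spread beyond counting error, was divided by the trend at the level of that gene. The median ratio was 10.7 in the members and 0.629 in the expressed genes, and 20 members were among the 100 expressed genes with the highest ratio. Nr4a1 (75.9), Egr1 (62.0), Fosb (57.1) and Fos (43.5) had the highest ratios, and Gadd45a (0.962), Mafk (1.15) and Fosl2 (1.68) the lowest.

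**Figure D3:**
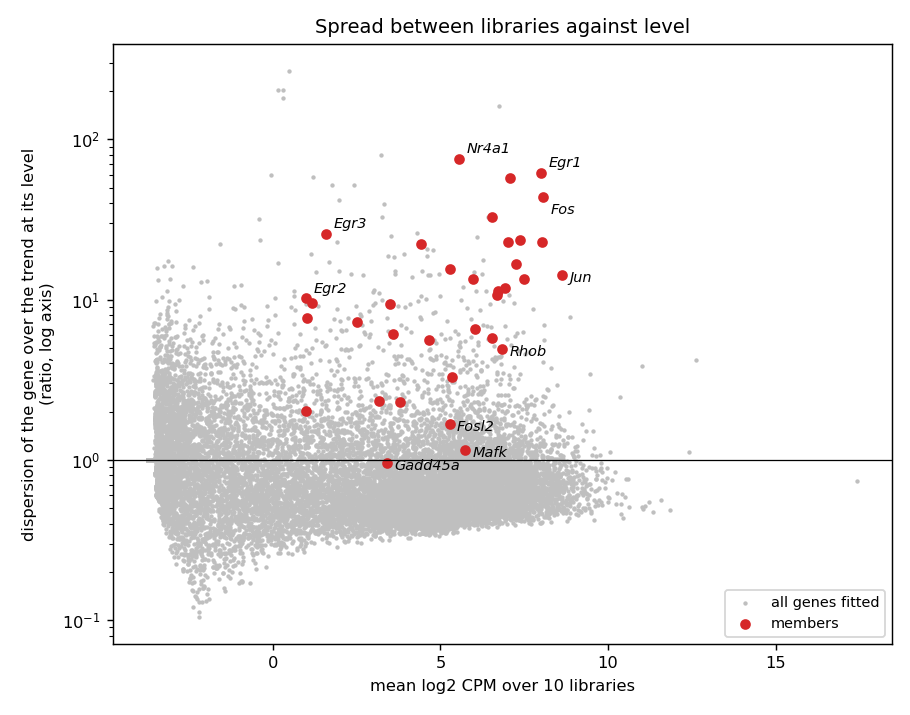
Dispersion of each gene divided by the trend at its level (log axis) against mean log2 CPM, with all 18747 genes fitted in grey and the 35 members in red. Members lie mostly above the grey cloud, up to a ratio of 75.9 for Nr4a1, with Gadd45a, Mafk and Fosl2 near the line at a ratio of 1.

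The comparison of genotypes asks how LSK cells carrying the fusion differ without miR-126. Every member had a lower fitted level without miR-126, although little of this exceeded the spread between mice. The fitted log2 fold change was below 0 for 35 of 35 members, against 52.6% of the 18747 genes fitted, and its median was -0.50 in the members and -0.01 in all genes. Since the members move together between libraries, as the heatmap shows, the 35 are not 35 independent observations. By the cutoffs of the study (p of 0.01 or below, a change of at least 1.5-fold, and a mean of at least 1 RPKM in at least 1 genotype) 1 member passed as lower, Rhob, against 0.0960% of all genes. Rhob averaged 148 ± 52.9 CPM in CM mice and 95.0 ± 18.7 CPM in CM/miR-126Δ/Δ mice (SD over 5 mice each). Its log2 fold change was -0.64 ± 0.20 (SE), with an adjusted p of 0.661 in the edgeR quasi-likelihood test. Leaving out each library in turn kept this call in 6 of 10 cases and lost it without CM mouse 2 (log2 fold change -0.40) or 4 (-0.63) or without CM/miR-126Δ/Δ mouse 3 (-0.61) or 5 (-0.53). DESeq2, filterByExpr and robust dispersions lost it as well.

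An unadjusted p below 0.05 was reached by 6 members, all lower in CM/miR-126Δ/Δ mice, against 3.32% of all genes in that direction. Besides Rhob these were Klf4 (log2 fold change -1.16 ± 0.39, SE), Klf6 (-0.74 ± 0.31), Klf2 (-1.33 ± 0.61), Ier5 (-0.49 ± 0.19) and Mafk (-0.25 ± 0.10), with edgeR p-values of 0.0104, 0.0331, 0.0458, 0.0228 and 0.0203, and that of Rhob was 0.00619. An adjusted p below 0.05 was reached by 0 members, against 0.0107% of all genes in either direction, and DESeq2 gave 0 such members and 3 with an unadjusted p below 0.05. No member separated the genotypes completely (0 of 35, against 1.10% of all genes). The members with the widest spread had large but uncertain differences: Fos -1.43 ± 0.74 (SE), Fosb -1.30 ± 0.76, Nr4a1 -1.05 ± 0.79 and Egr1 -0.89 ± 0.91 on the log2 scale, with edgeR p-values of 0.0724, 0.109, 0.203 and 0.345. Jun stood at -0.74 ± 0.40 and Dusp6 at -0.49 ± 0.33 on the log2 scale (SE), neither passing the test. The smallest differences were those of Gadd45a (-0.12), Btg1 (-0.17) and Fosl2 (-0.18).

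These differences depended on the libraries that stood apart. Without CM mouse 2 the median of the members was -0.29, 7 members turned to a higher fitted level in CM/miR-126Δ/Δ mice, and 0 members passed the cutoffs (0.177% of all genes as lower). Without CM mouse 3 the number with an unadjusted p below 0.05 was 12, 2 members passed the cutoffs, and 3 members (Dusp1, Fos and Rhob) no longer overlapped, against 3.28%, 0.145% and 2.58% of all genes in that fit. Without CM/miR-126Δ/Δ mouse 4 that number was 15 and 3 members passed the cutoffs (4.29% and 0.290% of all genes). Without mouse 3 or mouse 5 of this genotype it was 3 and 0 passed (3.37% and 2.37% of all genes for the p-value, 0.145% and 0.0482% for the cutoffs). Without CM mouse 1 the cutoffs passed 2 members and without CM mouse 4 they passed 0 (0.107% and 0.0804% of all genes). Without the 3 low libraries together, a choice made after the data were seen, the median was -0.27 and 31 members stayed lower (9543 of the 18513 genes fitted). Without these and CM mouse 2, it was -0.05 with 19 of 35 lower (9116 of the 18356 genes fitted). In that last set of 6 libraries Fos measured -0.68 ± 0.12 (SE), while Nr4a2 and Nr4a3 were at 0.45 and 0.92 in the opposite direction. The libraries were left out because of their member levels, so these values are descriptions and not tests of the genotype.

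Mice of the same number moved together in part. Across the 11682 expressed genes, the deviations of same-numbered mice from their genotype means correlated at 0.31, 0.25, 0.45, 0.46 and 0.17 for numbers 1 to 5. The mean for mice of different numbers was -0.08. It is no separate contrast, because deviations within a genotype sum to 0, which pushes it below 0 when same-numbered mice move together. These are correlations across genes, which are not independent replicates. Taken from the mean of each genotype and sex, the values were 0.16, 0.12 and 0.41 for mice 1 to 3 and -0.11 for mice 4 and 5, which share a value because each sex mean of males rests on 2 mice, so the agreement of mice 4 and 5 was not seen beyond sex. Across the 35 members the correlations were 0.40, 0.77, 0.75, 0.11 and -0.43. Of the sum of squares of a member, a median of 57.6% went with the number and 19.0% with the genotype, against 52.6% and 8.21% in the expressed genes. The number has 4 degrees of freedom and the genotype 1, so unrelated noise would also give the number the larger share. Sex is part of the share of the number, as same-numbered mice had the same sex. The share that went with the number was largest in Nr4a3 (78.7%), Nr4a2 (75.9%) and Egr3 (74.9%) and smallest in Mafk (16.2%). Rhob was the member with the largest share for genotype (41.2%).

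The same-numbered differences differed greatly between numbers. The median member difference, CM/miR-126Δ/Δ minus CM on the log2 scale, was -0.07 for mice 1, -1.17 for mice 2, -0.68 for mice 3, 0.30 for mice 4 and -1.87 for mice 5, whereas the median over the expressed genes lay between -0.03 and 0.01. Members lower in the CM/miR-126Δ/Δ mouse numbered 19, 35, 32, 10 and 35 of 35. Of the expressed genes 53.9%, 53.8%, 47.6%, 56.8% and 52.9% were lower, so the count for mice 1 was near the share of all expressed genes. The difference for mice 5 thus carried the low CM/miR-126Δ/Δ library and that for mice 2 the high CM library. Fos differed by -0.97, -1.59, -3.71, -0.41 and -5.06, all in one direction. Egr1 differed by -0.07, -1.80, -1.60, 0.76 and -5.41, and Nr4a1 by 0.33, -2.17, -3.71, 0.88 and -4.66, so for both the sign changed between numbers. In all 5 comparisons 7 members were lower in the CM/miR-126Δ/Δ mouse (Fos, Fosb, Dusp1, Klf2, Klf4, Klf6 and Rhob), against 4.61% of all genes.

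**Figure D4:**
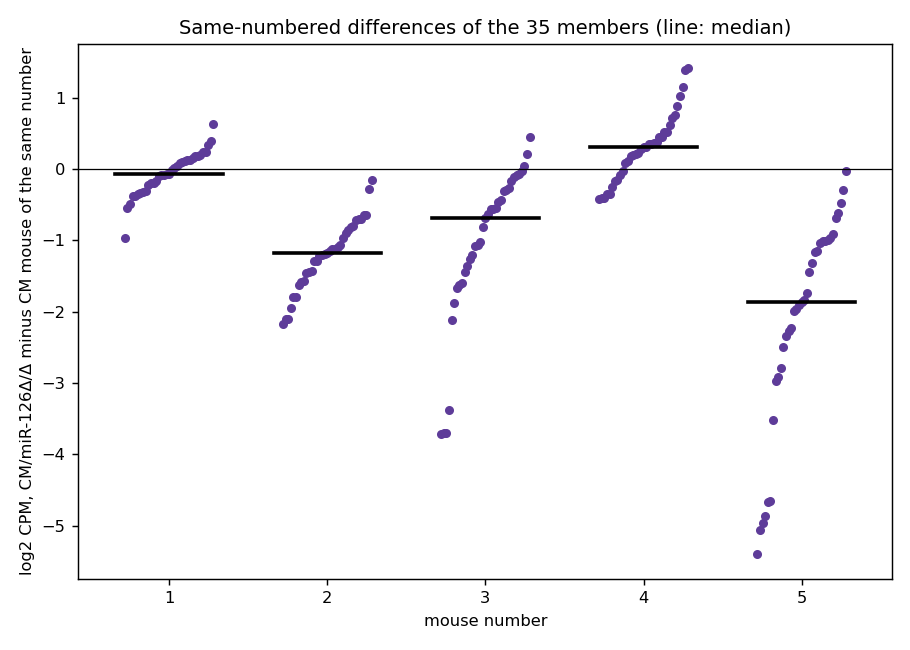
Difference in log2 CPM between the CM/miR-126Δ/Δ and the CM mouse of the same number for each of the 35 members (points, ordered within a number) with the median as a line. Medians run from 0.30 for mice 4 to -1.87 for mice 5, and the points of mice 2 and 5 all lie below 0.

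With a block for the replicate number, 11 members passed the cutoffs of the study, all lower in CM/miR-126Δ/Δ mice, against 0.261% of all genes. They were 5 of 7 AP-1 genes (Fos, Fosb, Jun, Junb and Jund), all 3 KLF genes, Dusp1, Zfp36 and Rhob, and 0 of 3 EGR and 0 of 3 NR4A genes. In this edgeR fit Fos fell by 2.19 on the log2 scale (SE 0.557, adjusted p = 0.204) and Dusp1 fell by 1.09 (SE 0.254, adjusted p = 0.168). Klf2 fell by 1.32 (SE 0.317, adjusted p = 0.179 in edgeR). An unadjusted p below 0.05 was reached by 19 members, against 4.62% of all genes in that direction. An adjusted p below 0.05 was reached by 0 members (0.107% of all genes in either direction), the lowest being that of Klf6 (log2 fold change -0.77 ± 0.14, SE, adjusted p = 0.0742 in edgeR). Egr1 (-1.40 ± 0.66, SE) and Nr4a1 (-1.56 ± 0.66) kept wide errors. That some families passed and others did not was not tested as a difference. The count of 11 was 13, 7, 5, 19 and 8 with numbers 1 to 5 left out in turn. Of all genes, 0.328%, 0.373%, 0.194%, 0.524% and 0.199% passed as lower in those fits. The count was 7 with DESeq2 (0.203% of all genes) and 0 (0.107%) with robust dispersions, a setting that lets genes of unusual spread keep their own variance. No call by these cutoffs therefore held under every setting.

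**Figure D5:**
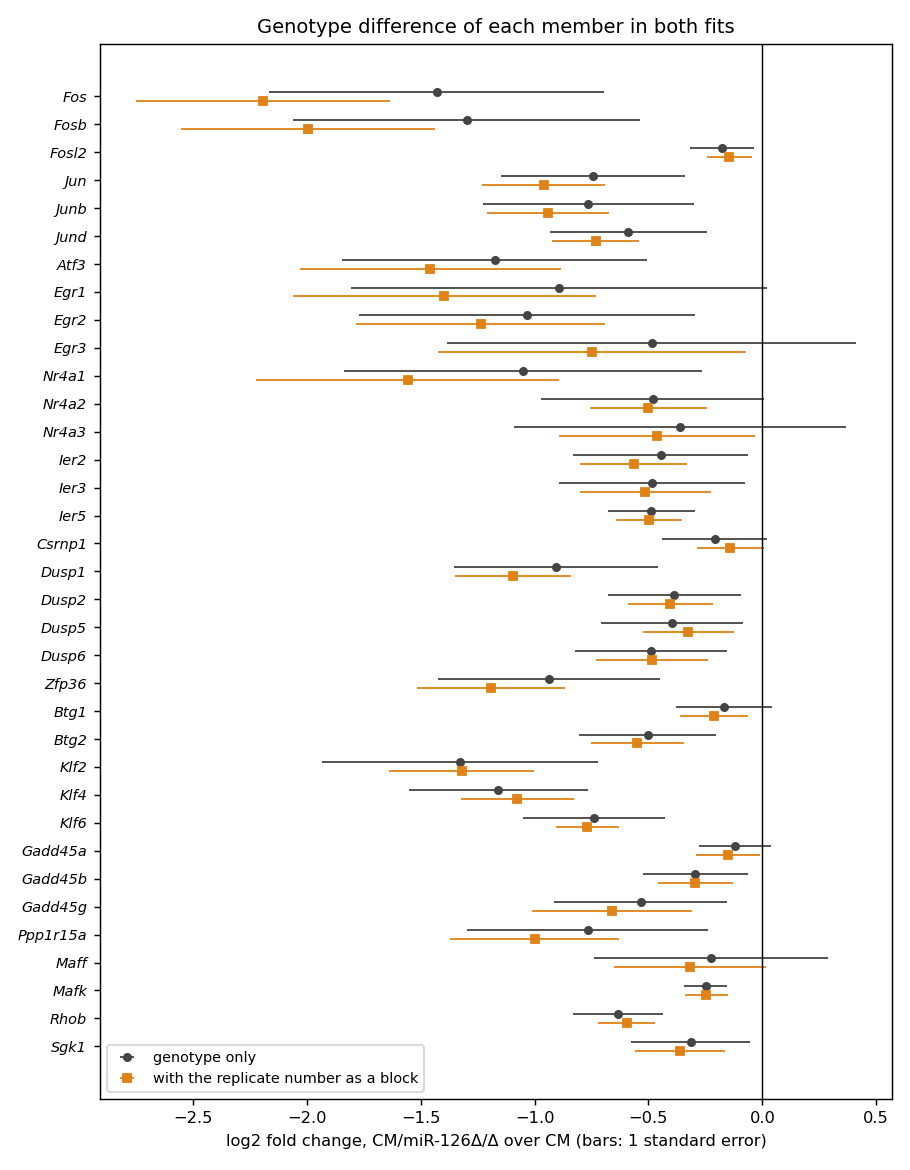
Log2 fold change of each member, CM/miR-126Δ/Δ over CM, with bars of 1 standard error, from the fit with genotype only (grey circles) and from that blocked on replicate number (orange squares). All points lie below 0, from -0.12 for Gadd45a to -2.19 for Fos with the block, and the errors without the block are widest for Egr1, Egr3 and Nr4a1.

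Genes around the members in the same pathway varied less. The factors that act upstream at these promoters (17 genes such as Srf, Creb1 and Elk1) had a median SD of 0.12 on the log2 scale, and the ERK cascade (17 genes) and the JNK and p38 cascade (13 genes) of 0.09 each. In these 47 genes 0 passed the cutoffs in either fit, and the median log2 fold changes were 0.00, -0.01 and 0.02. These are transcript levels, and the activity of the proteins was not measured in these libraries. By western blot, the study reported less phosphorylated ERK in lineage-negative marrow cells of CM/miR-126Δ/Δ mice than of CM mice. Another list of 40 rapidly induced genes followed the members. It was chosen with earlier results of these data known, so it gives no independent support. Of the 40, 37 had a lower fitted level in CM/miR-126Δ/Δ mice (52.6% of all genes), with a median of -0.28. The 3 low libraries were the 3 lowest for 22 of 40 (3.99% of the expressed genes). In the fit with genotype only, 0 of the 40 passed the cutoffs and 6 had an unadjusted p below 0.05, all lower (0.0960% and 3.32% of all genes as lower). With the block 2 passed, Rgs1 and Rgs2, regulators of G protein signalling (0.261% of all genes passed as lower). Rgs1 measured 109, 220.3, 60.7, 76.2 and 97.6 CPM in CM mice and 74.8, 78.7, 16.8, 99.6 and 22.1 CPM in CM/miR-126Δ/Δ mice (log2 fold change with the block -1.11 ± 0.28, SE). Rgs2 measured 189, 316, 112, 149 and 177 CPM in CM mice and 121, 129, 58.6, 162 and 57.4 CPM in CM/miR-126Δ/Δ mice (-0.88 ± 0.18, SE). Both had CM mouse 2 as the highest and CM/miR-126Δ/Δ mice 3 and 5 as the lowest libraries.

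Heat shock and integrated stress response genes followed less closely. Over all genes, 52.6% had a lower fitted level and 3.32% were lower at an unadjusted p below 0.05. Of 11 heat shock genes 10 had a lower fitted level (median -0.18, 0 past the cutoffs, 1 with an unadjusted p below 0.05), and the 3 low libraries were the lowest for 2 of them. Hspa1a and Hspa1b, singled out after their values were seen, were highest in CM mouse 3 (8.68 and 11.9 CPM), a library low in the members. CM mouse 2, high in the members, held 6.84 and 4.79 CPM. The low CM/miR-126Δ/Δ mice held 1.18 and 1.61 CPM (mouse 3) and 4.20 and 5.31 CPM (mouse 5). Of 12 integrated stress response genes, 11 had a lower fitted level (median -0.16, 0 past the cutoffs, 3 with an unadjusted p below 0.05), and the 3 low libraries were the lowest for 1. Atf4, Ddit3 and Cebpb stood in this list and in that of the rapidly induced genes, and Atf4 and Cebpb were among the 3.

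Several other measures also differed between the libraries, and some were extreme in 1 or more of the 3 low libraries. RNA concentration was lowest in CM/miR-126Δ/Δ mice 3 and 5 (16.1 and 18.2 ng/ul, against 20 to 40.9 in the others, with 26.5 in CM mouse 3). By genotype it was 20.6 to 40.9 ng/ul in CM mice and 16.1 to 29.5 ng/ul in CM/miR-126Δ/Δ mice. Depth also went with genotype: CM mouse 3 apart, CM libraries held 29221244 to 33202086 counts, against 24141663 to 26615091 in CM/miR-126Δ/Δ libraries. Their part in the genotype differences was not tested. The number of genes with a count was lowest in the 3 low libraries (15983 to 16191, against 16364 to 16698), of which CM mouse 3 had the fewest counts of all. The share of counts taken by the ribosomal gene Rn45s was highest in CM/miR-126Δ/Δ mouse 3 (22.6%) and lowest in CM mouse 3 (14.8%). Markers of 9 neutrophil genes summed to 1535 to 3067 CPM in CM mice and 1280 to 3755 CPM in the other genotype, highest in the 3 low libraries. This sum was mostly Mpo, which early myeloid progenitors also express (1231 to 3622 CPM), and the 3 low libraries were the 3 highest for 1 of the 9 genes. S100a8, S100a9 and Ltf, made by more mature neutrophils, ran otherwise, with 0.479, 0.566 and 0.0871 CPM in CM/miR-126Δ/Δ mouse 3 and 72.2, 109 and 65.2 CPM in CM/miR-126Δ/Δ mouse 4. Retnlg was at 0 in CM/miR-126Δ/Δ mouse 3 and Camp in CM mouse 2. Markers of B cells (7 genes, 28.4 to 40.4 CPM in CM mice and 24.5 to 39.4 CPM in the other genotype) were lowest in the 3 low libraries, with Ms4a1 at 0 in CM/miR-126Δ/Δ mouse 3 and Cd79b the most abundant (20.3 to 27.6 CPM). Megakaryocyte markers (6 genes, 148 to 224 CPM in CM mice and 113 to 198 CPM in the other genotype, mostly Itga2b) had the 3 low libraries as the lowest for 4 of 6. Stem cell markers (9 genes, most abundant Hlf) summed to 1137 to 1482 CPM in CM mice and 1382 to 1664 CPM in the other genotype, with 8 of 9 at a higher fitted level and 5 at an unadjusted p below 0.05, all higher. Over all genes, 616 of the 18747 fitted were higher at an unadjusted p below 0.05. Among the remaining markers 2 passed the cutoffs as lower in both fits, Il7r of the lymphoid-primed side of LSK cells (17.9 ± 6.53 CPM, SD, in CM mice, against 9.25 ± 3.62 CPM) and the mast cell gene Tph1 (5.84 ± 7.21 CPM, against 0.300 ± 0.168 CPM), the latter with CM mouse 2 highest at 18.5 CPM. The part of these measures in the member levels was not tested. Monocyte, T and NK cell, erythroid, mast cell and stromal markers summed to at most 418, 73.7, 122, 291 and 220 CPM in any library, and in 0 of their genes were the 3 low libraries the 3 lowest. They were the 3 highest for 1 T and NK cell gene and 1 erythroid gene. The erythroid sum was 55.6, 12.7, 122, 36.6 and 27.7 CPM in CM mice 1 to 5. In CM/miR-126Δ/Δ mice 1 to 5 it was 31.4, 45.5, 79.5, 83.2 and 91.1 CPM. Its relation to the member levels was not tested either.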

How the data were processed

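RNA-seq was analysed for LSK cells of 10 mice (5 CM and 5 CM/miR-126Δ/Δ), 1 library each, with genotype and replicate number from the labels. The authors prepared libraries with KAPA RNA HyperPrep and RiboErase, trimmed reads with Trimmomatic and FASTP, aligned them to mm10 with Tophat and counted RefSeq genes with HTSeq. Per the labels, bcl2fastq 2.18.0.12 and HTSeq 0.6.1p1 were used. The deposited counts are whole reads per gene, not normalized. The strand setting is not given in the sources used here, so overlapping genes can share reads. A second deposited table, each count divided by 1 constant per library, was not used. The design assumed deposited RPKM, but that table is not divided by length, so RPKM was computed from counts, deposited exon length and TMM library size.

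The 18747 genes that had 1 or more counts in some library entered edgeR 4.0.16 in R 4.3.3 (TMM, the quasi-likelihood functions with legacy settings, genotype as the only term, two-sided), with Benjamini-Hochberg adjustment over all of them. SE is the log2 fold change divided by the root of F. The prior count for log2 CPM was 2. The procedure was tested on simulated data. Alternatives were RLE factors, DESeq2 1.42.0, filterByExpr, the edgeR 4 quasi-likelihood, robust dispersions, the replicate block, Rn45s left out and each library left out. Sex as a term, sets of libraries left out and combinations with the block were chosen after seeing the data.

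The replicate numbers come from the sample titles. They were treated as pairing mice because all 5 same-numbered correlations of deviations exceeded 0.1 over expressed genes (0.17 to 0.46). Over the 13442 genes that reached 10 counts in 5 or more libraries, they were 0.18, 0.16, 0.43, 0.29 and -0.00. No 2 libraries agreed within sampling noise (the smallest chi-square per gene was 9.99). The labels number the samples, and the study's text gives 5 mice per genotype.

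The members and gene lists were chosen with earlier results of these data known. All members are named. Other genes are named if they passed a call rule in a pathway list or were the most abundant marker, except where said. Ms4a1, Retnlg, Camp, S100a8, S100a9, Ltf, Atf4, Ddit3, Cebpb, Il7r and Tph1 were chosen after their values were seen. Of the 8 erythroid markers, 3 haemoglobin genes were listed at 0 in every library.

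Promoters were matched by symbol for 32 of 35 members (not Ier2, Egr1 and Egr3). The comparison of promoters with expressed genes is void, since 78.4% of these matched. The 3′ untranslated regions came from GENCODE M1 transcripts, used for sequence only, for 35 members and 82.5% of expressed genes. Total counts of 23649233 to 33202086 put 3 counts at 0.0908 to 0.131 CPM. Such limits cover counting error only, since reads carry no molecular identifiers.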

Additional observations from a re-analysis of the deposited data

Results flagged for a closer look

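For each member and genotype, the highest or lowest mouse was marked when its gap to the nearest mouse exceeded 0.71 of the range of the 5 mice. For normally distributed values chance alone would mark about 1 in 20 groups, or 3.5 of the 70 groups examined. The rule was applied to CPM without a log, where skewed values can be marked more often, so 3.5 is only a rough guide. The 70 are also not independent because the members move together. In all 11 were marked, and 10 of them were CM mouse 2. These were Nr4a1 at 336 CPM (46.9 to 81.1 in the other 4 mice), Nr4a2 at 38.2 CPM (6.43 to 13.6), Nr4a3 at 11.3 CPM (0.696 to 2.67), Jun at 1000.1 CPM (381 to 553), Fosl2 at 61.8 CPM (34.1 to 40.6) and Atf3 at 10.7 CPM (2.09 to 4.09). The others were Klf2 at 121 CPM (11.9 to 38.1), Klf6 at 311 CPM (111 to 159), Dusp5 at 62.5 CPM (16.7 to 27.0) and Gadd45g at 4.00 CPM (2.00 to 2.44). The remaining value was Mafk in CM/miR-126Δ/Δ mouse 4, at 59.0 CPM (43.9 to 47.9 in the other mice). CM/miR-126Δ/Δ mice 3 and 5 were low together, and a gap to the nearest mouse does not mark a value that has a neighbour.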

How the results depend on the processing

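The median log2 fold change of the members (-0.50) lay between -0.80 and -0.29 when each library was left out in turn. The number past the cutoffs (1) was 0 with DESeq2, filterByExpr or robust dispersions (0.112%, 0.0826% and 0.0693% of all genes as lower). It was 2 without both mice 3 (0.134%) and 3 without the 3 low libraries (0.119%). The number with an unadjusted p below 0.05 (6) was 3 with DESeq2 and 3 with robust dispersions (2.81% and 3.14% of all genes as lower). It was 10 without both mice 3 (3.98%) and 13 without the 3 low libraries (3.40%). Without these and CM mouse 2 it was 10, 5 lower and 5 higher (3.34% of all genes as lower). The number whose genotypes did not overlap (0) was 3, 3 and 6 in these last 3 sets, where 4.36%, 7.50% and 12.3% of all genes did not overlap. Leaving out each library in turn gave 0 to 3 members past the cutoffs, 2 to 15 with an unadjusted p below 0.05 and 0 to 3 that did not overlap. The shares of all genes in these fits were 0.0482% to 0.290% and 1.92% to 4.29% as lower, and 1.37% to 3.37% not overlapping. With the replicate block 11 passed the cutoffs, 19 had an unadjusted p below 0.05, and 7 were lower in every pair (0.261%, 4.62% and 4.61% of all genes). The blocked count of 11 was 7 with DESeq2, 5 with filterByExpr and 0 with robust dispersions (0.203%, 0.203% and 0.107% of all genes as lower). It was 7, 5 and 19 without pairs 2, 3 and 4 (0.373%, 0.194% and 0.524%). RLE factors, leaving out Rn45s, sex as a term and the edgeR 4 quasi-likelihood kept 1 member past the cutoffs (0.0800%, 0.101%, 0.128% and 0.0907% of all genes as lower). The causes were not tested.

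The range over each library left out in turn ran from below to above 0 for Fosl2 (-0.23 to 0.0084), Egr3 (-1.04 to 0.20), Nr4a2 (-0.67 to 0.10), Nr4a3 (-0.80 to 0.54), Dusp5 (-0.54 to 0.0099), Maff (-0.65 to 0.13, and 0.013 without CM/miR-126Δ/Δ mouse 3) and Csrnp1 (-0.35 to 0.071), each time highest without CM mouse 2. Without the 3 low libraries the sign turned for Nr4a3 (0.031), Btg1 (0.065), Gadd45a (0.067) and Maff (0.075). Without these and CM mouse 2 it turned for Fosl2 (0.031), Egr3 (0.53), Ier2 (0.054), Atf3 (0.084), Nr4a1 (0.37), Nr4a2 (0.45), Nr4a3 (0.92), Dusp2 (0.012), Dusp5 (0.18), Btg1 (0.21), Btg2 (0.026), Gadd45a (0.046), Gadd45g (0.048), Maff (0.38), Csrnp1 (0.12) and Sgk1 (0.14). The sets of 2 or more libraries were chosen after seeing the data, from the member levels. Depth limits Egr2, Egr3, Atf3 and Nr4a3, which had fewer than 10 counts in at least 1 library.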
